A study of Homo sapiens with 8 samples.

Results

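Wnt antagonists, Wnt receptors, beta-catenin and the Wnt-related gene TCIM were followed in cisplatin-resistant derivatives of A2780, a human ovarian carcinoma cell line, against the parental line. The members are the clones on the array whose name in the deposited table is SFRP1, SFRP4, FRZB, DKK1, DKK3, FZD2, FZD7, CTNNB1 or TCIM, for which the table uses the older name C8ORF4. They came to 9 clones of 8 genes, each printed as 1 spot, out of 13340 clones on the array. CTNNB1 had 2 clones, which were kept apart. FZD2 was not analysed here. The genes were chosen with their ratios against the parental line in view, so those ratios are given as a description and carry no test.

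Wnt proteins are secreted signals that bind Frizzled receptors (FZD genes) together with an LRP co-receptor at the cell surface. Binding protects beta-catenin, the product of CTNNB1, from breakdown, and beta-catenin then enters the nucleus and acts with TCF and LEF factors on target genes. Secreted Frizzled-related proteins (SFRP1, SFRP4 and FRZB) carry a Frizzled-like domain that binds Wnt outside the cell, DKK1 blocks the LRP co-receptors, and loss of SFRP1 expression is a long-known feature of many carcinomas.

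The derivatives CPR20, CPR40, CPR55 and CPR70 are labelled cisplatin resistant, and the parental line, CPR00, is labelled cisplatin sensitive. All derive from A2780 and were grown in serum-containing medium with no drug named. Each derivative was hybridised on 2 spotted cDNA arrays, with its cDNA in Cy5 and that of the parental line in Cy3 on every array. The labels give neither the way the derivatives were selected, nor whether a derivative is a clone or a pool, nor what the number in the name stands for. Nothing in them tells if duplicate arrays used separate cultures, so the errors and p-values below may measure technical spread alone.

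A channel was taken as above background where it exceeded the median of the empty spots of its array by 2.6 scaled median absolute deviations. Derivative channels had 26.4% to 60.3% of clone spots over this level, and parental channels 20.3% to 41.9%. The level itself was 119.7 to 659.7 for derivative channels and 186 to 641 for parental ones, in the intensity units of the scanner. The ratios are log2 of derivative over parental line after loess normalisation within each array, so a negative value means less signal in the derivative. Over 13186 clones with values in every derivative the median log2 ratio of the 4-derivative mean was -0.01. Of 7 epithelial markers, 1, KRT18, was above background on 5 or more arrays, 8 in the derivative channel and 4 in the parental one. EPCAM and CDH1 were above it on 2 and 0 arrays in those channels, KRT7 and KRT19 on 1 and 1, MUC1 on 1 and 0, and KRT8 on 0 and 1. The ovarian carcinoma markers PAX8, WT1 and FOLR1 were above it on 1 and 0, 0 and 0, and 1 and 2 arrays. No leukocyte marker of 5 reached 5 arrays in either channel, and of 4 endothelial markers VWF was above background on all arrays and the other 3 on none. Fewer expressing cells and less RNA per cell cannot be told apart in these bulk samples.

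SFRP1 and TCIM had the lowest ratios of the members. SFRP1 was lower in the derivative than in the parental line on 8 of 8 arrays, with a mean log2 ratio of -2.03 ± 0.19 (SE, 4 derivatives with 2 arrays each). TCIM was lower on 8 of 8 arrays too, at -3.34 ± 0.42. DKK1 (-1.07 ± 0.18) and FZD7 (-0.73 ± 0.16) had smaller negative means. SFRP4 (0.61 ± 0.10) and CTNNB1 by clone 774754 (0.44 ± 0.10) had positive means and were higher on 8 of 8 arrays. Of the 10807 clones with all 8 values, 7.03% were lower on every array and 9.04% were higher on every array. In the limma fit 6 of the 8 member clones with enough values had a Benjamini-Hochberg adjusted p under 0.05 in the mean of the derivatives, against 11.0% of all 13186 clones. Of the 6, 4 were lower and 2 were higher, against 4.62% and 6.33% of all clones. Since the members were picked on this contrast, these shares are given for scale only. A ratio within an array carries no measure of how the parental line itself varies. It also holds any effect of the dye on a given gene, because the dyes were exchanged on 0 of 8 arrays. Of 7 stromal markers, 4 were lower in the derivatives as well in limma, COL3A1 (-2.60, adjusted p = 0.0012), COL1A2 (-2.18, 0.0091), LUM (-1.97, 0.040) and PDGFRB (-0.84, 0.021). COL1A1 (-0.19), DCN (-0.32) and THY1 (0.83) did not pass. The summed intensity of the 7 was 1281.2 to 10795.8 over derivative channels and 1570.2 to 41185.7 over parental ones. DCN was at background on all arrays in both channels. Of the epithelial markers EPCAM was higher in the derivatives (0.82, limma adjusted p = 0.032), with its parental channel at background on all arrays. KRT18 (1.54, limma adjusted p = 0.067) and the other epithelial markers did not pass. No ovarian carcinoma, leukocyte or endothelial marker passed. The part of the stromal genes in the low ratios of SFRP1 and TCIM was not tested.

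**Figure D1:**
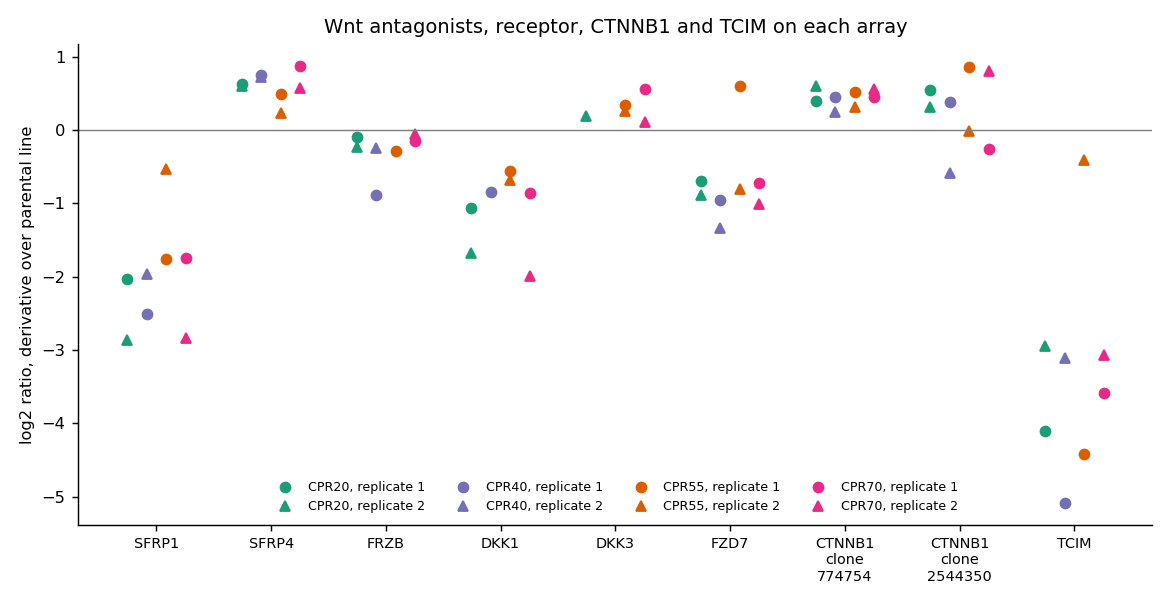
Log2 ratio of derivative over parental line (vertical axis) for each of the 9 member clones, with 1 point per array, colour for the derivative and shape for the replicate. SFRP1 lies between -2.87 and -0.53 and TCIM between -5.08 and -0.42, with CPR55 replicate 2 nearest to 0 in both, while SFRP4 lies between 0.24 and 0.87.

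SFRP1, the secreted antagonist that binds Wnt, was represented by clone 82225. In the derivative channel it had an intensity of 182 and 317.5 in CPR20, 125.7 and 156 in CPR40, 123.3 and 269.1 in CPR55, and 100.7 and 312.1 in CPR70. In the parental channel of the same arrays it had 770.7 and 1902.1 beside CPR20, 1024.5 and 544.5 beside CPR40, 464.9 and 262.3 beside CPR55, and 834.6 and 2513.6 beside CPR70. The derivative intensity was below the parental one on 7 of 8 arrays before normalisation, the exception being CPR55 replicate 2. The derivative channel was above background on 2 arrays, CPR20 replicate 2 and CPR55 replicate 2, and the parental channel on 7, all but CPR55 replicate 1. The normalised log2 ratios were -2.04 and -2.87 in CPR20, -2.51 and -1.97 in CPR40, -1.76 and -0.53 in CPR55, and -1.75 and -2.83 in CPR70. The mean corresponds to a 4.09-fold lower level in the derivatives. With each dim derivative channel raised to the background level of its array, and the parental channel as measured, the value became 2.605-fold. In CPR40 and CPR70, where the derivative channel did not reach background level on either array, SFRP1 was at least 2.43-fold and at least 4.49-fold lower than in the parental line. Its mean ratio held rank 28 from the lowest of 13186 clones.

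TCIM encodes a small protein known to bind Chibby, an antagonist of beta-catenin, and to raise Wnt target gene activity. Clone 50562 had a derivative intensity of 51.7 and 43 in CPR20, 29.6 and 20.4 in CPR40, 28 and 123.4 in CPR55, and 105.9 and 74.4 in CPR70. The parental intensities beside them were 1545.9 and 468.8, 2763.4 and 235, 1291.4 and 94.3, and 2655.3 and 956 in the same order. The derivative channel was above background on 0 of 8 arrays, and the parental channel on 7 of 8. The exception was CPR55 replicate 2, where the parental intensity was 0.51 times the background level and the derivative intensity was the higher one before normalisation. The log2 ratios were -4.10 and -2.95 in CPR20, -5.08 and -3.11 in CPR40, -4.42 and -0.42 in CPR55, and -3.59 and -3.07 in CPR70. Because the derivative channel gives only a bound, it was raised to the background level, which made TCIM 3.05-fold lower over the 4 derivatives. This value includes CPR55 replicate 2, where both channels were at background and give no bound. By derivative TCIM was at least 2.37-fold lower in CPR20, 3.47-fold in CPR40 and 5.49-fold in CPR70. In CPR55 the value was 1.92-fold with replicate 2, and without it the bound was 3.56-fold. The spot of CPR40 replicate 2 had an area of 23, against 109 to 192 on the other 7 arrays. CBY1, the gene of Chibby, did not pass the limma test, at -0.18 ± 0.17 (adjusted p = 0.55).

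**Figure D2:**
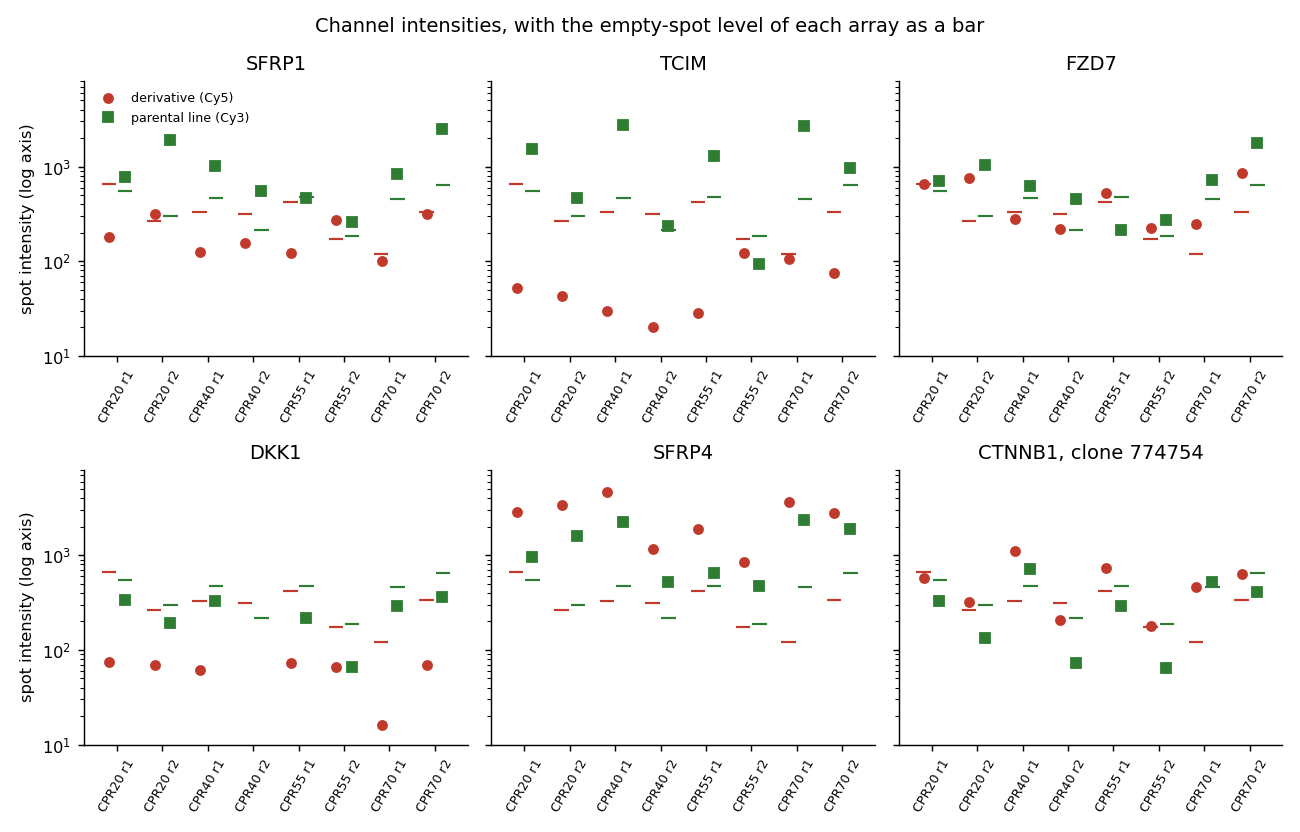
Spot intensity on a log axis for 6 member clones on each of the 8 arrays (r1 and r2, replicates 1 and 2), with the derivative channel as circles left of the parental channel as squares and the background level of each channel as a short bar. For TCIM every circle lies below its bar and 7 of 8 squares lie above theirs, for DKK1 all points lie below their bars, and for SFRP4 all lie above.

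The size of the TCIM ratio differed between the array sets. On the 4 replicate 1 arrays its log2 ratio was between -5.08 and -3.59, with parental intensities of 1291.4 to 2763.4. On the 4 replicate 2 arrays it was between -3.11 and -0.42, with parental intensities of 94.3 to 956, and the sets did not overlap in either quantity. For SFRP1 the means of the sets were -2.02 on replicate 1 arrays and -2.05 on replicate 2 arrays, and the ranges overlapped. Without CPR55 replicate 2 the mean over derivatives was -2.19 ± 0.19 for SFRP1 and -3.84 ± 0.27 for TCIM. The part of parental signal strength in the size of the TCIM ratio was not tested.

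DKK1 blocks LRP co-receptors and is itself a known target of beta-catenin, a negative feedback in the pathway. Its clone 669375 had log2 ratios of -1.06 and -1.68 in CPR20, -0.85 in CPR40, -0.56 and -0.69 in CPR55, and -0.86 and -1.99 in CPR70, and its spot was not found on CPR40 replicate 2. The fit used the 7 values. Derivative intensities ran from 16.2 to 73.8 and parental ones from 65.6 to 362.6, and neither channel was above background on any array. No fold is therefore given. Among the 2752 clones with both channels at background on all arrays, the median log2 ratio was -0.08, and 4 clones, DKK1 included, were as low as DKK1 or lower. Of these 2752 clones 0.799% passed the test in the mean. The 250 bases before the start of DKK1 (chr10:52314031-52314280, plus strand, GRCh38.p14) are shown because they hold the core of the motif that TCF and LEF factors bind, CTTTGA or its complement TCAAAG, in capitals.

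DKK1: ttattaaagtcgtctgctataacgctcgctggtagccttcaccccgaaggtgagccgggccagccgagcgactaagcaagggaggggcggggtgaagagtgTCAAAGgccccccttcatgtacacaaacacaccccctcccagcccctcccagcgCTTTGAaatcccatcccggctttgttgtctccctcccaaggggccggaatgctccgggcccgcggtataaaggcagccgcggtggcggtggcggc

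The 2 matches begin 149 and 95 bases before the start. A match on either strand was present in 11.4% of 27305 promoter windows of the same length, and a match describes the letters only. Of the 9 members, 4 had a promoter in the RefSeq table used (DKK1, SFRP4, FRZB and CTNNB1), and DKK1 was the only one of the 4 with a match.

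SFRP4, a secreted Frizzled-related protein like SFRP1, had more signal in the derivatives than in the parental line. It was above background in both channels on 8 of 8 arrays. Clone 841282 had derivative intensities of 2858.5 and 3406.8 in CPR20, 4678.7 and 1156.4 in CPR40, 1905.7 and 843 in CPR55, and 3667.1 and 2813.7 in CPR70. The parental intensities in the same order were 966.1 and 1592.2, 2239.2 and 522.3, 646.9 and 467.2, and 2337.1 and 1875.3. The derivative had the higher intensity on every array, before and after normalisation. The log2 ratios were 0.62 and 0.59 in CPR20, 0.74 and 0.73 in CPR40, 0.49 and 0.24 in CPR55, and 0.87 and 0.58 in CPR70. The mean corresponds to a 1.52-fold higher level in the derivatives. SFRP4 is the member with the firmest measurement, since none of its values rests on background.

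FRZB, a Wnt-binding antagonist first known from cartilage, had clone 341310, at background in both channels on all 7 arrays with a value. Its log2 ratios ran from -0.89 to -0.06, with a median of -0.23 and a mean of -0.28 ± 0.13. Its spot was not found on CPR55 replicate 2. DKK3, a Dickkopf family protein that is often silenced in tumours, had clone 760299, which was found on 5 arrays and on neither array of CPR40, and so it was not in the fit. Its 5 log2 ratios were 0.19 in CPR20, 0.34 and 0.26 in CPR55, and 0.56 and 0.10 in CPR70. The derivative channel of DKK3 was above background on 1 array, CPR70 replicate 1, and the parental channel on none. For FRZB and DKK3 these arrays thus give no usable level.

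FZD7, a Frizzled receptor found on many stem and carcinoma cells, was the only receptor among the members with a clone. Clone 239256 had derivative intensities of 650.9 and 762.6 in CPR20, 282.2 and 217.4 in CPR40, 521.7 and 221.6 in CPR55, and 247.9 and 852.5 in CPR70. The parental intensities in the same order were 709.4 and 1039.1, 621.3 and 450, 214.7 and 270.4, and 726 and 1778.8. The derivative channel was above background on 5 arrays and the parental channel on 7. CPR55 replicate 1, where the parental channel was below background, was the only array with a higher derivative value, at 0.60, while CPR55 replicate 2 had -0.81. The other derivatives had -0.69 and -0.88 in CPR20, -0.95 and -1.33 in CPR40, and -0.73 and -1.01 in CPR70. The mean corresponds to a 1.65-fold lower level in the derivatives, and in CPR40, where the derivative channel stayed below background on both arrays, to at least 1.78-fold.

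CTNNB1, the gene of beta-catenin, had 2 clones of unequal brightness. Clone 774754 had log2 ratios of 0.39 and 0.60 in CPR20, 0.45 and 0.25 in CPR40, 0.51 and 0.31 in CPR55, and 0.45 and 0.56 in CPR70. Its derivative intensities had a minimum of 177.1, a median of 524 and a maximum of 1118.7, against 65, 310 and 720.7 in the parental channel. The derivative channel was above background on 6 arrays and the parental channel on 2. The 1.36-fold mean therefore rests in large part on parental values near background, and with these raised to the background level no fold above 1 was left. Clone 2544350 was above background on 1 array in the derivative channel and on 0 in the parental channel. Its ratio was higher on 5 arrays and lower on 3, with a mean of 0.25 ± 0.18. The promoter windows of SFRP4 (chr7:37916818-37917067, minus strand) and CTNNB1 (chr3:41199255-41199504, plus strand), both GRCh38.p14, are shown beside that of DKK1 for their content of CpG dinucleotides. Neither holds the CTTTGA core, so no letters are in capitals.

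SFRP4: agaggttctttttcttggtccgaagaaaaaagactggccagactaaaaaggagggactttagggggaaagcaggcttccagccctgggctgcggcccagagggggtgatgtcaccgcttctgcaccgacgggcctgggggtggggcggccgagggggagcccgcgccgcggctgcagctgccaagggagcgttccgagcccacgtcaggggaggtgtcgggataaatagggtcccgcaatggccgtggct
CTNNB1: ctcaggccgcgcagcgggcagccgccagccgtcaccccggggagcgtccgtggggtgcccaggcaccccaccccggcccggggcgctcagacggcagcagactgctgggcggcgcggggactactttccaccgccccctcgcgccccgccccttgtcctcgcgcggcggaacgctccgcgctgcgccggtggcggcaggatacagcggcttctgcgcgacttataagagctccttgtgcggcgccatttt

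The CTNNB1 window had 34 CpG dinucleotides, more than 93.4% of the promoter windows in the table. The DKK1 window had 18 and the SFRP4 window 17, against a median of 11 over all windows.

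The levels of the members were next compared among the derivatives. The same parental line is the comparator of all 4 and a dye effect specific to a gene cancels, but a parental channel near background does not, as for TCIM on CPR55 replicate 2. For SFRP1 the order from lowest to highest mean log2 ratio was CPR20 (-2.45), CPR70 (-2.29), CPR40 (-2.24) and CPR55 (-1.15), each with an SE of 0.38. For TCIM the fitted means, which rest on derivative intensities at background, were -3.52 in CPR20, -4.10 in CPR40, -2.42 in CPR55 and -3.33 in CPR70, each with an SE of 0.84. They give no order of levels, and their bounds run in another order, with CPR70 farthest from the parental line (at least 5.49-fold). CPR55 had 1.92-fold with replicate 2 and 3.56-fold without it. FZD7 had CPR40 (-1.14), CPR70 (-0.87), CPR20 (-0.79) and CPR55 (-0.10), with an SE of 0.32. CPR55 thus had the fitted value nearest to the parental line in SFRP1 and FZD7.

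No neighbours in these orders differed beyond their spread after adjustment. In the limma fit 0 of 13186 clones passed the adjusted threshold for any difference among the 4 derivatives, against 345 (2.62%) at an unadjusted p under 0.05, and 0 passed it in any of the 6 pairs, where 260 to 499 clones had an unadjusted p under 0.05. These were 2.92% of clones for CPR40 minus CPR20, 2.98% for CPR55 minus CPR20, 1.97% for CPR70 minus CPR20, 2.62% for CPR55 minus CPR40, 3.37% for CPR70 minus CPR40 and 3.78% for CPR70 minus CPR55. For SFRP1 CPR55 minus CPR20 was 1.31 (95% interval 0.05 to 2.56), with an unadjusted limma p of 0.043 and an adjusted p of 1.00. CPR70 minus CPR55 was -1.14 (95% interval -2.40 to 0.11) and CPR70 minus CPR40 was -0.05 (-1.31 to 1.21). For TCIM the largest fitted difference, CPR55 minus CPR40, was 1.68 (-1.07 to 4.44), and for FZD7 the same pair differed by 1.04 (-0.01 to 2.10). These intervals leave room for differences of more than 1 log2 unit in each of the 3 genes, so equal levels are not shown. SFRP4 (-0.37, from -1.01 to 0.26, in CPR55 minus CPR40) was narrower. The fit over the number in the name gave slopes per 10 units of 0.10 ± 0.10 for SFRP1 and 0.13 ± 0.23 for TCIM. Of all clones 0 passed the adjusted limma test of this slope, against 254 (1.93%) at an unadjusted p under 0.05, and at most 4 with 1 array left out.

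**Figure D3:**
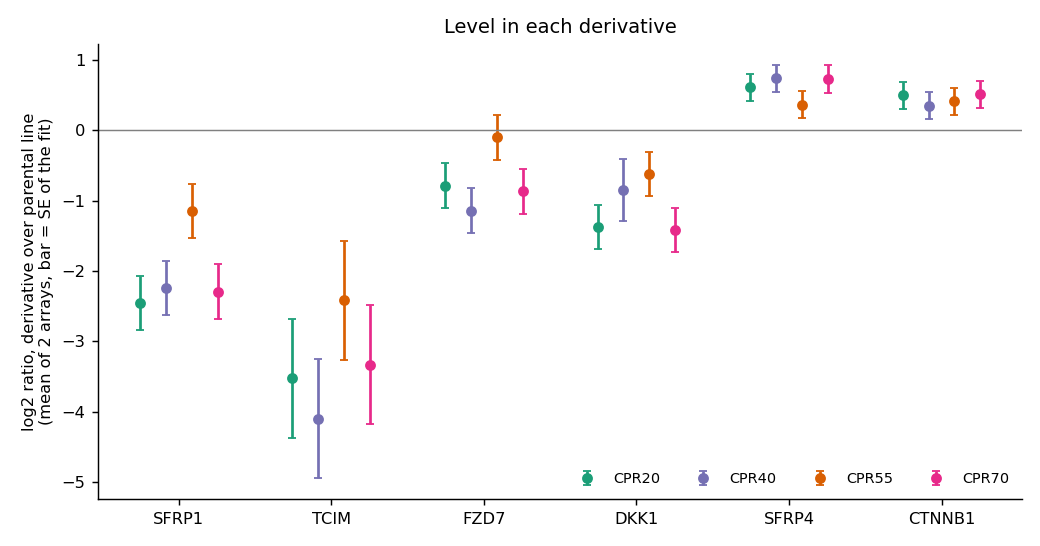
Mean log2 ratio of derivative over parental line (vertical axis) in CPR20, CPR40, CPR55 and CPR70 for 6 member clones, with bars of 1 SE from the fit of 2 arrays per derivative (1 array for DKK1 in CPR40). The fitted CPR55 value is nearest to 0 in SFRP1 (-1.15), TCIM (-2.42), FZD7 (-0.10), DKK1 (-0.62) and SFRP4 (0.36). Its bars overlap those of at least 1 other derivative in TCIM, DKK1 and SFRP4. The values of TCIM and DKK1 rest on channels at background and give no order of levels.

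The fitted CPR55 value lay nearest to 0 in 5 of the 6 member clones plotted by derivative, CTNNB1 being the exception. Among the 5, DKK1 has no usable level and the fitted means of TCIM give no order of levels. The tally therefore describes fitted values only. Over all 1444 clones past the threshold CPR55 was nearest to 0 in 34.8%, CPR20 in 31.6%, CPR40 in 19.6% and CPR70 in 14%. CPR20 was thus nearest to 0 almost as often as CPR55. The CPR55 arrays had the lowest shares of clone spots above background in the parental channel, 20.3% and 20.7%, against 26.7% to 41.9% on the other 6 arrays. For TCIM the CPR55 value came from unlike arrays, -4.42 on replicate 1 and -0.42 on replicate 2. For SFRP1 they were -1.76 and -0.53, and for FZD7 0.60 and -0.81. The part of the weaker parental channel in the CPR55 values was not tested.

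The rest of the Wnt pathway was described with 133 genes in 7 lists, of which 87 had a clone in the fit, each represented by its brightest clone. In the mean of the derivatives 4 of the 87 were higher and 9 lower past the adjusted limma threshold, and 74 did not pass. That is 14.9% of the 87 genes, against 11.7% of all 9837 genes, of which 6.84% were higher and 4.89% lower. Their median log2 ratio was -0.03, against -0.003 for all genes, so the middle of the pathway lay close to that of all genes. The count fell to 5 without CPR20 replicate 2, 6 without CPR70 replicate 2, 7 without CPR40 replicate 1, and 8 each without CPR20 replicate 1, CPR40 replicate 2 and CPR55 replicate 2. With the array set as a block it was 22. Under the other settings tried FZD5 and PLAUR lost their call in 14 of 20, TCF7L2 in 13, CSNK1D in 11, EP300 and CTBP2 in 10, and GSK3B and TLE4 in 8, whereas TLE1, FGF18, WIF1, GPC3 and PPARD lost it in at most 3.

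In the ligand list, which also holds PORCN, a gene that is not itself a ligand, 0 of 6 measured genes passed in limma. Of these, 1, WNT10B (-0.28 ± 0.11), had an unadjusted limma p under 0.05. The share of all clones under this unadjusted threshold in the mean was not counted. Unadjusted counts here and in the other lists thus have no share over all clones beside them and are no result about the pathway. WNT10B was above background on 8 arrays in the derivative channel and 5 in the parental one. WNT5A was so on 2 and 0 arrays, WNT7A on 1 and 0, and WNT2, WNT11 and PORCN on 0 and 0, so most of this list was not detected. WNT5A, a ligand best known for signalling outside the beta-catenin route, had 0.12 ± 0.20. Among other receptors 1 of 11 passed, FZD5, which was lower at -0.38 ± 0.09 (limma adjusted p = 0.040) on 8 of 8 arrays. LRP6, the co-receptor that DKK1 blocks, had 0.04 ± 0.11. The other 10 receptors did not pass.

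Of 7 other secreted or surface modulators, 1 was higher and 1 lower. GPC3, a cell surface proteoglycan that binds Wnt, was higher at 0.78 ± 0.13 (limma adjusted p = 0.0086) on 8 of 8 arrays, with its parental channel above background on 1 of them. WIF1, a secreted Wnt inhibitor that like SFRP1 binds the ligand, was lower at -0.82 ± 0.14 (limma adjusted p = 0.011) on 8 of 8 arrays. WIF1 was above background on 1 array in the derivative channel and on 3 in the parental channel. DKK2 (-0.15 ± 0.14) and DKK4 (0.15 ± 0.12), relatives of DKK1, were at or near background and did not pass.

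Of 20 cytoplasmic genes, 1 was higher and 1 lower. GSK3B, the kinase that marks beta-catenin for breakdown, was lower at -1.002 ± 0.21 (limma adjusted p = 0.021) by its brightest clone, which was above background on 8 arrays in both channels, while its other clone had -0.02. CSNK1D, a casein kinase, had 0.86 ± 0.22 (limma adjusted p = 0.045) with a parental channel at background on all arrays, so that no fold is given, and its other clone had -0.13. The clones of both genes therefore disagree. The array sets differed too, with GSK3B at -0.47 on replicate 1 arrays alone and -1.54 on replicate 2 arrays alone, and CSNK1D at 1.39 and 0.34. AXIN1, AXIN2 and APC, parts of the destruction complex, had 0.23 ± 0.13, -0.05 ± 0.10 and 0.07 ± 0.11 and did not pass. Of these, AXIN2 was at background in both channels on all arrays. APC2, a relative of APC, had the lowest mean of the 87 genes, -1.22 ± 0.32, but did not pass (limma adjusted p = 0.051), and its other clone had 0.22. The brightest clone of APC2 was above background on 0 arrays in the derivative channel and on 4 in the parental channel.

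The nuclear list held the most genes past the test, 5 lower and 0 higher of 15 in limma, with 0 higher at an unadjusted p under 0.05 as well. TLE1 (-0.78 ± 0.11, limma adjusted p = 0.0042) and TLE4 (-0.79 ± 0.17, 0.025) are Groucho corepressors that bind TCF and LEF factors, and the other clone of TLE4 had -0.99. CTBP2, a further corepressor, was at -0.56 ± 0.12 (0.026), and EP300, a histone acetyltransferase and coactivator, at -0.45 ± 0.10 (0.022). TCF7L2, a DNA-binding partner of beta-catenin, was at -0.52 ± 0.12 (0.032), with means of -0.51 in CPR20, -0.84 in CPR40, 0.07 in CPR55 and -0.81 in CPR70. It was lower on 7 of 8 arrays and had 0.51 on the other. TLE1, TLE4, CTBP2 and EP300 were lower on 8 of 8 arrays. TCF7L2, TLE1 and EP300 were above background on at least 7 arrays in each channel, and TLE4 and CTBP2 on 3 to 4. LEF1 (0.40 ± 0.18) was at background in both channels.

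Of 9 junction partners of beta-catenin, 0 passed in limma and 2, CDH2 and JUP, had an unadjusted p under 0.05. CDH2, the neural cadherin, was at 0.76 ± 0.22 (limma adjusted p = 0.065), with its parental channel above background on 1 array. CTNNA1 was at 0.22 ± 0.13. Of 19 known target genes, 2 were higher and 1 lower. PPARD, a nuclear receptor for fatty acids, was at 0.78 ± 0.12 (limma adjusted p = 0.0051). PLAUR, the urokinase receptor, was at 0.42 ± 0.11 (0.041), with -0.42 for its other clone. The parental channel was above background on 4 arrays for PPARD and on 2 for PLAUR. FGF18, a growth factor, was at -0.60 ± 0.10 (0.0074). MYC (-0.46 ± 0.19), CCND1 (-0.31 ± 0.12) and AXIN2, which are among the most used readouts of beta-catenin activity, did not pass. MYC and CCND1 had unadjusted limma p of 0.040 and 0.029. AXIN2 was above background on 0 arrays in either channel, so its ratio gives no usable level. Of the 19 target genes, 6 had an unadjusted limma p under 0.05, and 2 of these were higher, again without a share over all clones to set beside them. The target genes past the test did not share a direction.

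**Figure D4:**
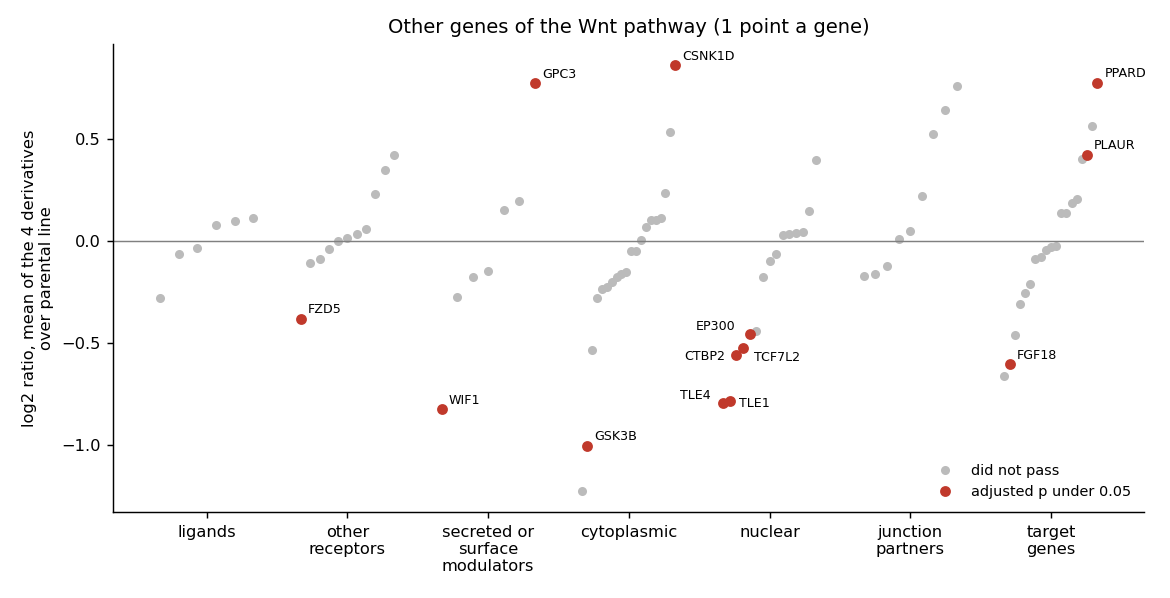
Log2 ratio of the mean of the 4 derivatives over the parental line (vertical axis) for 87 other Wnt pathway genes in 7 lists, 1 point per gene sorted by value within its list, with the 13 genes past the adjusted threshold in red and named. The 5 named nuclear genes lie between -0.79 and -0.45, and the ligand and junction lists have 0 named genes.

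SFRP1 and TCIM lie near each other on chromosome 8, with 1 protein-coding gene, ZMAT4, between them that was not analysed here. By the order of RefSeq genes (GRCh38.p14), they share the same 20 nearest genes with a clone in the fit, 10 on each side. The median log2 ratio of these 20 genes was 0.05, in a range of -0.50 to 0.61. It was -0.10 with median centring in place of loess and -0.17 with the authors' calibrated ratio. The median of all clones was also lower under these settings, at -0.06 and -0.09. FGFR1, a growth factor receptor, was lower at -0.50 ± 0.13 (limma adjusted p = 0.045), ADAM3A was higher at 0.61 ± 0.16 (0.046) with its channels above background on 1 and 0 arrays, and 18 did not pass. The lowest after FGFR1 were NSD3 (-0.43 ± 0.11) and KAT6A (-0.43 ± 0.12), and the highest after ADAM3A were POLB (0.44 ± 0.16) and IKBKB (0.38 ± 0.13). IDO1 and ANK1, the measured genes on the outer sides of the pair, had 0.16 ± 0.13 and -0.39 ± 0.24. No neighbour had a mean as low as that of SFRP1 or TCIM, but a parental channel at background leaves little room for such a mean. Among the neighbours the parental channel was above background on 5 or more arrays only for LSM1 (-0.16), NSD3, ADAM9 (-0.27) and VDAC3 (0.20). On the genes nearest to the pair it was above background on 0 arrays for ADAM5, ADAM3A, ADAM2, IDO1, KAT6A and AP3M2 and on 1 for ANK1. Median values of the 20 neighbours of the other members lay between -0.13 and 0.13.

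**Figure D5:**
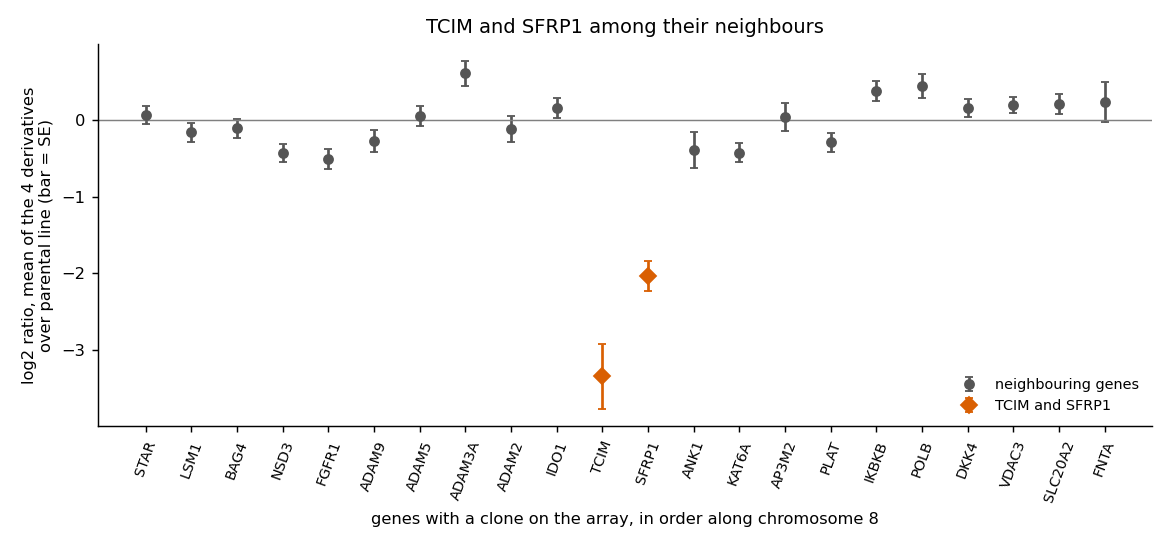
Log2 ratio of the mean of the 4 derivatives over the parental line (vertical axis, bars of 1 SE) for TCIM, SFRP1 and the 10 nearest genes with a clone on each side, in their order along chromosome 8 and not to distance. TCIM (-3.34) and SFRP1 (-2.03) lie below all 20 neighbours, the lowest of which is FGFR1 (-0.50). Some neighbours, such as IDO1 and KAT6A, had a parental channel at background on all arrays. This leaves little room for a ratio as low as that of SFRP1 or TCIM.

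The genes most like SFRP1 and TCIM over the 8 arrays were found by the root mean square difference of log2 ratios, over 8199 genes with complete values. For SFRP1 they were P8 (0.449), FLNC (0.578), PHLDA3 (0.609), RBPMS (0.618) and FLJ21562 (0.651), the names being those of the deposited table where no single current symbol matched. P8 had a mean log2 ratio of -2.05 and lay between -2.45 and -1.32. FLNC encodes a filamin that crosslinks actin, and PHLDA3 is a known p53 target. For TCIM they were MGC3047 (0.922), CDKN1A (1.03), S100A11 (1.15), FLJ20128 (1.21) and COL3A1 (1.42). CDKN1A, the cyclin-dependent kinase inhibitor p21, had a mean of -2.68, and S100A11, a calcium-binding protein, -3.48. For MGC3047, CDKN1A and S100A11, as for TCIM, the derivative channel was above background on 0 arrays, so these ratios are limited by background. It was above background on 8 arrays for FLJ20128 and COL3A1. Of the genes nearest to SFRP1 it was above background on 0 arrays for FLNC, 2 for PHLDA3 and RBPMS, 4 for FLJ21562 and 5 for P8. SFRP1 and TCIM differed from each other by 1.68 on this measure, and neither was among the genes named for the other. The named genes were chosen as the nearest, so their smaller differences follow from that choice and do not show how alike SFRP1 and TCIM are. The arrays are shared by all genes, so this likeness is a description of these 8 hybridisations.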

How the data were processed

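Total RNA of 4 derivatives (Cy5) and of the parental line (Cy3) was measured on 8 spotted cDNA arrays, per the labels. The authors deposited, per spot, a linear intensity for each channel, a calibrated ratio and a spot area, an other kind of measure with no unit stated, and separately log2 values. These equalled log2 of the calibrated ratio within 0.0001 for all 113456 values compared, of which 4015 belong to spots of area 0, and 1178 spots have none, so fits on the ratio and on the log2 values used unequal sets of spots. Image software and background treatment are not given in the sources used here. A further 8 value columns belong to arrays with no sample description and were not used.

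After an offset of 50 on every intensity, with area-0 spots missing, log2 ratios were normalised by loess within each array. Control spots had weight 0, and spots of a clone were averaged. Clones with a value in every derivative were fitted as 4 groups with limma 3.58.1 in R 4.3.3. The fit was also run on simulated data with errors independent between arrays. Those data lack the array-set differences given below, so they cannot show how the fit handles them. Adjustment was by Benjamini-Hochberg over 13186 clones at 0.05. A fold for a dim channel is a lower bound, with that channel raised to the background level of its array and the other left as measured. Where both channels are dim it is no bound. Clone names were current symbols for 6345 clones, older symbols for 2488, several matches for 307, unmatched for 2204 and absent for 1996. Precision is limited by the 8 arrays.

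The members, lists and tests were chosen with earlier results of these data known. Every member is named. Of each Wnt list the 4 genes past the test with the smallest p are named, and other genes are given as values chosen after they were seen. Of the neighbours the 3 lowest and 3 highest are named, and for likeness the 5 nearest genes.

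Replicate 2 minus replicate 1 differences correlated at 0.23 to 0.36 between derivatives over 6 pairs of derivatives, so the replicate numbers mark array sets, and a fit with the set as a block was an alternative. The other alternatives were an offset of 200 and of 0, normexp correction, median centring, scaling or quantile normalisation between arrays, the authors' calibrated ratio, the deposited log2 values, dim clones left out, each array set alone, each array left out, and for neighbours 5 on each side.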

Additional observations from a re-analysis of the deposited data

How the results depend on the processing

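The direction of the mean ratio of every fitted member clone held under all alternatives run. Of these, the quantile normalisation between arrays acted on spot brightness alone and left the ratios as they were, so it could change no result. SFRP1 ranged from -2.53 to -1.55 and TCIM from -4.33 to -2.30 over 20 alternatives, with the offset of 200 giving the values nearest to 0. FZD7 ranged from -1.01 to -0.44, SFRP4 from 0.53 to 0.82 and CTNNB1 by clone 774754 from 0.31 to 0.59, while DKK1, at background, ranged from -2.38 with the authors' calibrated ratio to -0.61 over 17. The count of clones past the threshold in the mean of the derivatives, 1444, depended on the setting. It was 725 with median centring, 286 with the authors' calibrated ratio, 309 with the deposited log2 values, 2257 on replicate 2 arrays alone and 764 to 1209 with 1 array left out, the lowest being 764 without CPR20 replicate 2, 875 without CPR70 replicate 2 and 933 without CPR20 replicate 1. With the array set as a replicate block, which pairs arrays by number, it was 2549, and the count of other Wnt genes was 22. That count, 13, was 6 with median centring, 1 with the calibrated ratio, 1 with the deposited log2 values, 7 on replicate 1 arrays alone, 21 on replicate 2 arrays alone and 5 to 13 with 1 array left out. TLE1 lost its call under 3 of 20 alternatives, PPARD and GPC3 under 2, FGF18 under 3, WIF1 under 3 of 19, GSK3B and TLE4 under 8, EP300 and CTBP2 under 10, CSNK1D under 11, TCF7L2 under 13, and FZD5 and PLAUR under 14. The neighbours' median, 0.05, was -0.10 with median centring, -0.17 with the calibrated ratio and -0.17 with the deposited values. In the same 3 settings the median of all clones was -0.06, -0.09 and -0.11. With 1 array left out the neighbours' median was -0.065 to 0.082. The slope gave 0 to 4 clones with 1 array left out. The causes of these shifts were not tested.

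Signal over background limits DKK1, FRZB and DKK3, which have no usable level, and makes the ratio of TCIM a bound. SFRP1, FZD7 and CTNNB1 rest in part on values near background. A dye effect specific to a gene cannot be told apart from the comparison with the parental line.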

Other observations

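Among the other Wnt genes, CCND1, a cell cycle gene and known target of beta-catenin, had the smallest p in the limma F test among derivatives, with mean log2 ratios of -0.87 in CPR20, 0.05 in CPR40, 0.58 in CPR55 and -0.99 in CPR70. Its unadjusted p was 0.0037 and its adjusted p 1.00, so it did not pass, and it was the only 1 of the 87 genes with an unadjusted p under 0.05 in this test. Its other clone had a mean of -0.08 over the derivatives.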
